A study of Mus musculus with 40 samples.

Results

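Among 324168 autosomal tiles of 100 bp with a methylation level in all 12 follicular B-cell libraries, 894 (0.276%) were chosen because they stood higher without Tet3 and not without Tet2. For each, the mean of the 3 Tet3-knockout (Tet3KO) libraries lay at least 15 percentage points above the wild-type (WT) mean, and every Tet3KO value lay above every WT and every Tet2-knockout (Tet2KO) value. The Tet2KO mean had to lie within 8 points of WT. Follicular WT, Tet2KO and Tet3KO levels therefore chose the tiles and are given as a description. The 3 follicular libraries of the double knockout (DKO, Tet2 and Tet3 both deleted) had only to hold a value, and the 12 pro-B libraries took no part.

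The data are reduced representation bisulfite sequencing (RRBS), which reads methylation in CpG-rich restriction fragments, from C57/bl mouse B cells. Pro-B cells, an early stage of the lineage, and follicular B cells, a mature resting stage, came from WT, Tet2KO, Tet3KO and DKO mice, 3 libraries per group. WT libraries came from mice of 8, 6 and 6 weeks, 2 male and 1 female at each stage, and Tet2KO libraries from females of the same ages. Tet3KO libraries, 2 male and 1 female, were all at 7 weeks, and DKO libraries, 2 male and 1 female, at 7, 7 and 6 weeks. Age and Tet3KO thus cannot be told apart. Per the labels the knockouts are inducible and under the MB1 promoter, a promoter of the B lineage. No inducing agent is named. Nothing in the labels ties each library to a mouse of its own, so a p-value here measures spread between libraries that may be technical. Libraries are called by the running number in their titles, 1 to 12 for pro-B and 13 to 24 for follicular cells.

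The Tet enzymes oxidise 5-methylcytosine to 5-hydroxymethylcytosine and further forms, which are then diluted at replication or cut out by base repair. Tet2 and Tet3 are both known to act in B cells, where enhancers are cleared of methylation as the cells mature. Bisulfite reads 5-methylcytosine and 5-hydroxymethylcytosine alike, so a level here counts both forms.

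The deposited table holds a fraction per tile and library, without read counts, so depth was unknown and single levels of 0 or 100% can rest on few reads. Tiles with a value numbered 411441 to 608149 in follicular libraries and 273728 to 631415 in 11 of the pro-B libraries. Pro-B Tet3KO library 8 had 24600, and only 27 of the 894 tiles had a value in it. Tile numbers differed between follicular genotypes, with means of 581199 (WT), 554699 (Tet2KO), 513931 (Tet3KO) and 510280 (DKO). The part of depth in the differences between genotypes was not tested.

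In the follicular libraries that chose them, the 894 tiles stood slightly higher without Tet2 than in WT (1.91 points, without overlap) and much higher without Tet3. The mean level was 39.9%, 38.1% and 38.7% in WT libraries 13, 14 and 15, and 40.5%, 41.5% and 40.6% in Tet2KO libraries 16, 17 and 18. It was 59.0%, 61.0% and 64.7% in Tet3KO libraries 19, 20 and 21. The DKO libraries, which did not choose the tiles, stood at 62.1%, 55.6% and 61.0%, overlapping Tet3KO and above all WT libraries. Group means (± SD, n = 3 each) were 38.9% ± 0.908 for WT and 40.9% ± 0.522 for Tet2KO, compared with 61.6% ± 2.87 for Tet3KO and 59.6% ± 3.50 for the DKO.

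**Figure D1:**
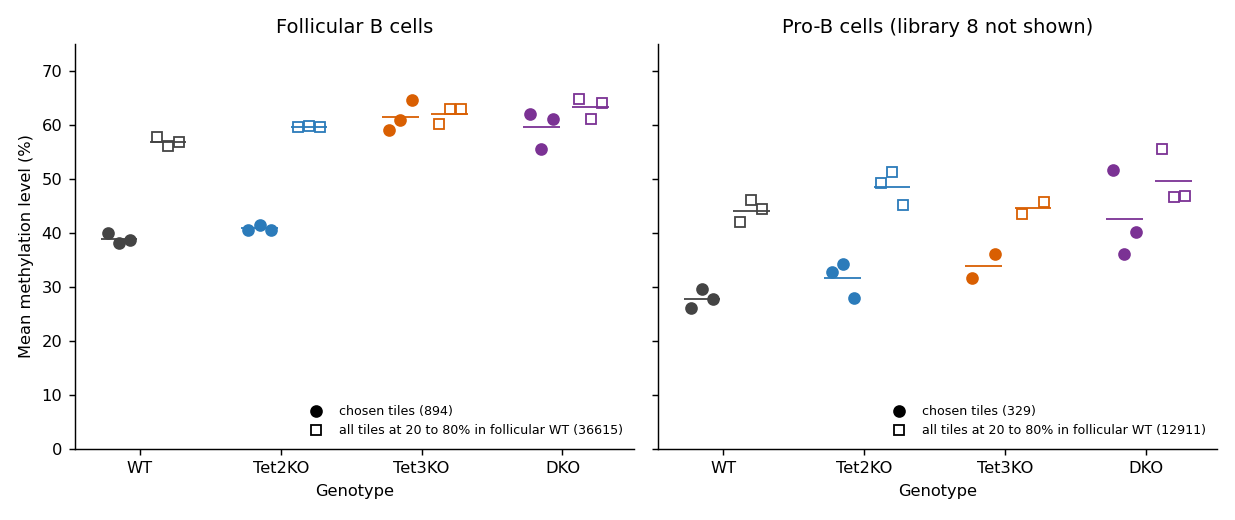
Mean methylation level (%) of each library, by genotype, in follicular cells (left) and pro-B cells (right); filled circles are the chosen tiles, open squares all tiles with a follicular WT mean of 20 to 80%, and bars are group means. At the chosen tiles the follicular Tet3KO libraries (59.0 to 64.7%) lie high by choice and the DKO libraries (55.6 to 62.1%) lie beside them, while in pro-B cells the DKO libraries are spread from 36.2 to 51.7%.

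For scale, the 36615 tiles with a follicular WT mean of 20 to 80% differed from WT by 5.09 points in Tet3KO, 2.75 in Tet2KO and 6.45 in DKO. The rule asked for far more than this general rise in Tet3KO and for about the general difference in Tet2KO. Of all 324168 tiles, 2.12% had a Tet3KO mean 15 points above WT and 6.26% had every Tet3KO value above every WT value, conditions that all 894 meet by choice.

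Most of the chosen rises were moderate. Tet3KO minus WT ran from 15.01 to 70.7 points with a median of 20.7. It was under 20 points at 399 tiles, 30 or more at 118 and 40 or more at 23. The tiles closest to the minimum were chr12:9116901-9117000 and chr1:184695101-184695200, both at 15.01, and just outside it lay chr2:157531301-157531400 and chr10:67391701-67391800, both at 14.99. At the Tet2KO limit, chr17:28478201-28478300 at 7.98 points and chr11:70443901-70444000 at -7.93 were inside, and chr4:147343601-147343700 at 8.04 and chr6:101217201-101217300 at -8.02 outside. A further 4091 tiles met all of the rule but the 15-point minimum, and 474 all but the Tet2KO limit.

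The largest rise was at chr2:71978701-71978800 (build mm9, as all coordinates here). Its WT libraries stood at 13.3%, 0% and 0% and its Tet2KO libraries at 7.14%, 4.55% and 20.6%. Tet3KO libraries reached 58.1%, 75% and 92.3%, and DKO libraries 100%, 87.0% and 96.9%. The locus was thus nearly unmethylated in WT and nearly full in the DKO, with Tet3KO in between. At chr8:87223201-87223300 WT stood at 17.9%, 31.0% and 25.0%, Tet2KO at 25.0%, 25.0% and 17.6%, and Tet3KO at 61.9%, 78.9% and 91.7%. Here the DKO, at 68%, 72.2% and 63.2%, lay inside the Tet3KO range.

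The DKO took different positions among the 10 largest rises. It lay above all 3 Tet3KO libraries at chr11:102294401-102294500, with means of 11.4% (WT), 16.9% (Tet2KO), 63.6% (Tet3KO) and 93.0% (DKO). The same held at chr1:167593001-167593100 (means in the same order 2.38%, 4.80%, 53.7% and 92.0%) and at chr19:53517501-53517600 (5.73%, 11.1%, 51.5% and 93.2%). It lay above Tet3KO on average, with overlap of 1 library, at chr1:162163401-162163500 (8.29%, 6.25%, 54.2% and 89.4%) and chr10:87885401-87885500 (9.47%, 10.46%, 56.7% and 79.3%). Its mean was within 8 points of Tet3KO at chr3:27182101-27182200 (26.7%, 33.0%, 73.6% and 80.7%, with its 3 libraries just above all Tet3KO libraries) and chr13:43882101-43882200 (0.926%, 1.28%, 47.6% and 52.5%). At chr10:20866101-20866200 it fell short of Tet3KO, at 42.9%, 26.9% and 44.8% against 60%, 62.2% and 75.9%, with WT at 14.6%, 12.2% and 20%.

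**Figure D2:**
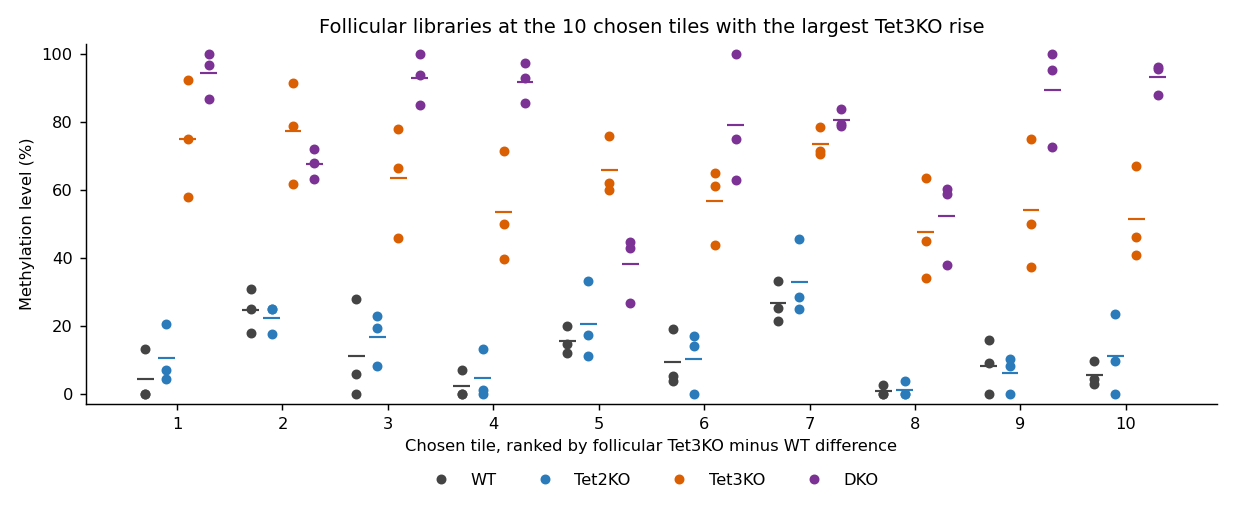
Methylation level (%) of each of the 12 follicular libraries at the 10 chosen tiles with the largest Tet3KO minus WT difference, in order of that difference; points are libraries and bars group means. WT and Tet2KO means lie within 8 points of each other at every tile, as the rule requires, while the DKO means run from 38.2% at the fifth tile to 94.6% at the first.

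Since the rule picked tiles by the values it was then read from, a Tet3KO rise was also measured in libraries left out of a choice of tiles. The rule was applied with 1 WT, 1 Tet2KO and 1 Tet3KO follicular library left out, in all 27 ways, which chose 1672 to 3185 tiles each time. With fewer values to separate the rule was looser, so these sets are larger than the 894 and do not measure the 894 again. In the left-out libraries Tet3KO exceeded WT by 7.62 points, compared with 22.6 in the libraries that chose the 894 tiles. Left-out WT libraries stood at 48.8%, 46.4% and 46.7%, and left-out Tet2KO libraries at 50.2%, 50.0% and 50.2%. Left-out Tet3KO libraries stood at 50.6%, 56.6% and 57.6%, so library 19 was 0.404 points above the highest Tet2KO library while libraries 20 and 21 were clear of it. Tet2KO exceeded WT by 2.82 points in these libraries, near the 2.75 of all tiles at 20 to 80%, and Tet3KO exceeded Tet2KO by 4.81. All tiles at 20 to 80% averaged 62.0% in Tet3KO and 59.7% in Tet2KO. On average 66.6% of the tiles had the left-out Tet3KO library above the left-out WT library. By group means instead of single libraries, Tet3KO lay above WT at 70.1% of tiles at 20 to 80% and 53.3% of all tiles. In held-out libraries the tiles chosen in this way thus kept Tet3KO above WT and Tet2KO on average, as did tiles at 20 to 80% in general. The Tet3KO rise of the tiles chosen in this way was nearer to the 5.09 points of all tiles at 20 to 80% than to the size that chose them. Tet2KO showed a small difference as well.

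**Figure D3:**
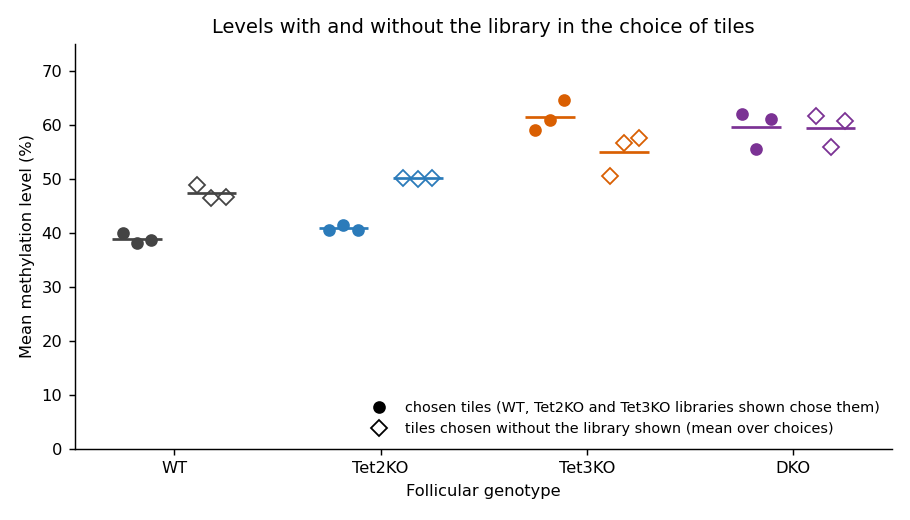
Mean follicular methylation level (%) by genotype; filled circles are the 894 chosen tiles, where the WT, Tet2KO and Tet3KO libraries shown made the choice, open diamonds are tiles chosen without the library shown, averaged over choices, and bars are group means. The gap from WT to Tet3KO is 22.6 points at the 894 tiles and 7.62 at the larger sets chosen by the looser rule. The DKO, which never took part in the choice, stands at 59.6% and 59.4%.

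The DKO libraries are the independent follicular measurement of the 894 tiles. The DKO mean lay 20.6 points above WT (SE 2.09, no overlap of libraries) and 2.00 points below Tet3KO (difference -2.00, SE 2.62, overlapping libraries). WT was low and Tet3KO high by choice at these tiles, so both differences carry that choice. In the held-out choices the DKO exceeded the left-out WT libraries by 12.1 points and the left-out Tet3KO libraries by 4.47.

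Tile by tile, the DKO was not uniformly high. Its mean lay at least 15 points above WT at 526 of the 894 tiles (58.8%, against 2.97% of all tiles). It lay more than 8 and under 15 points above WT at 186 and within 8 points of WT at 172 (19.2%). At 10 tiles it lay more than 8 points below WT. At 466 tiles (52.1%) every DKO library lay above every WT library, against 7.37% of all tiles. Limma called 50 of the 894 higher in follicular DKO than in WT (0.145% of all tiles) and 0 lower (0.00185%), with 328 at an unadjusted p under 0.05, all of them higher (36.7%, against 4.01% of all tiles). Because WT chose the tiles, these counts describe them and are no test.

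Against Tet3KO, the DKO mean was within 8 points at 427 tiles, at least 15 points higher at 97 (10.9%, against 1.67% of all tiles) and at least 15 points lower at 141 (15.8%, against 0.941%). Every DKO library lay above every Tet3KO library at 85 tiles (9.51%, against 4.26% of all tiles) and below at 139 (15.5%, against 3.34%). Among tiles of 20 to 80% in follicular WT, 8.21% were at least 15 points higher and 4.84% lower. There 7.04% lay above and 3.71% below without overlap. The shares of chosen tiles with a higher DKO were thus nearer to these than to those of all tiles. Tiles were chosen high in Tet3KO, which favours the counts with a lower DKO.

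The position of the DKO differed with the WT level. The 266 tiles with a WT mean under 20% averaged 8.85% (WT), 11.4% (Tet2KO), 32.4% (Tet3KO) and 38.6% (DKO), so the DKO lay 6.26 points above Tet3KO. At the 600 tiles of 20 to under 80% the same means were 50.3%, 51.8%, 72.8% and 67.5%, with the DKO 5.34 points under Tet3KO (difference -5.34). At the 28 tiles of 80% and over they were 82.2%, 85.7%, 98.3% and 89.5%. The DKO thus exceeded Tet3KO on average only in the lowest of these 3 classes, and the histogram of DKO minus Tet3KO shows a long upper tail there. The classes use the follicular WT levels that chose the tiles, so they are a description. Tet3KO was high by choice, and at 98.3% it left the DKO little room above it in the highest class.

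**Figure D4:**
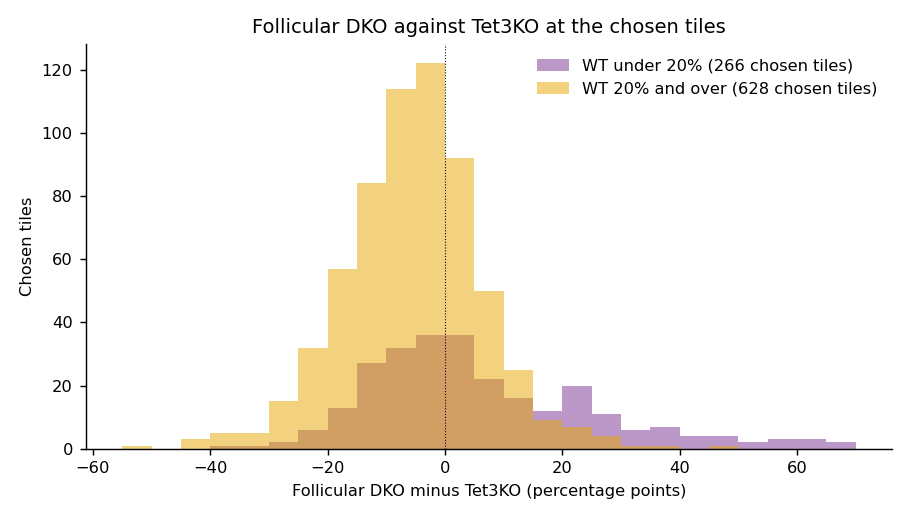
Number of chosen tiles by the follicular DKO minus Tet3KO difference of group means (percentage points, bins of 5), for tiles with a WT mean under 20% and tiles at 20% and over; the dotted line marks no difference. The tail to the right, up to 69.4 points, is made mainly of tiles under 20% in WT, and most tiles at 20% and over lie left of the line.

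The highest DKO levels over WT were at loci almost free of methylation in WT and Tet2KO. Differences of 87.8 to 94.8 points require a low WT level, and the rule keeps Tet2KO near WT, so this follows from how the loci were picked. At chr15:61813201-61813300 WT stood at 0%, 2.97% and 2.33%, Tet2KO at 2.20%, 14.1% and 5.13%, Tet3KO at 24.2%, 26.2% and 31.2%, and DKO at 93.9%, 98.0% and 97.8%. WT and Tet2KO overlapped here, Tet3KO lay above both, closer to WT than to the DKO. At chr8:73292401-73292500 all 6 WT and Tet2KO libraries stood at 0%, Tet3KO at 15.4%, 23.9% and 33.3%, and DKO at 96.6%, 70.1% and 96.6%. At chr9:44379201-44379300 the means of WT, Tet2KO, Tet3KO and DKO were 0.426%, 4.18%, 34.55% and 94.4%. The other loci of this group, at chr2:71978701-71978800 and chr1:167593001-167593100, are described above.

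At the other end, the DKO lay below WT on average at the 5 tiles of lowest difference. At chr2:121400201-121400300 WT stood at 50.0%, 63.6% and 63.6%, Tet3KO at 90.5%, 74.1% and 84.6%, and DKO at 36.4%, 24.1% and 53.8%. At chr1:63031001-63031100 WT stood at 25.3%, 53.5% and 48.1%, Tet3KO at 66.3%, 60.2% and 57.3%, and DKO at 13.01%, 32.6% and 35.6%. The DKO thus overlapped WT at both tiles and lay clear below Tet3KO. Mean differences from WT at the remaining tiles were -13.1 points at chr5:103639801-103639900, -12.7 at chr19:42272001-42272100 and -12.4 at chr1:20513101-20513200. At the last of these WT was already at 81.5% and Tet3KO at 98.0%.

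Pro-B cells gave the second measurement in libraries that took no part in the choice. The labels do not say whether the same mice gave both stages, so full independence of the choice is not known. A level in all 11 pro-B libraries other than library 8 was held by 329 of the chosen tiles, and these are on the whole less methylated in follicular cells (WT 27.6%) than the full set. Pro-B WT libraries 1, 2 and 3 stood at 26.0%, 29.5% and 27.7%. Tet2KO libraries 4, 5 and 6 stood at 32.8%, 34.2% and 28.0%, and Tet3KO libraries 7 and 9 at 31.6% and 36.1%. DKO libraries 10, 11 and 12 stood at 51.7%, 36.2% and 40.1%. The Tet3KO and DKO libraries all lay above the WT libraries, and Tet2KO library 6 lay among the latter.

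The pro-B difference from WT was 6.08 points in Tet3KO (SE 2.45, n = 2), 3.91 in Tet2KO (SE 2.13, n = 3) and 14.9 in DKO (SE 4.76, n = 3). Tet3KO and Tet2KO differed by 2.17 points (SE 2.92) with overlapping libraries, so the separation that chose the tiles in follicular cells was not resolved in pro-B cells. At 12911 tiles of 20 to 80% in follicular WT, covered in the same way, the pro-B differences from WT were 0.445 in Tet3KO, 4.42 in Tet2KO and 5.50 in DKO. There Tet3KO lay 3.98 points below Tet2KO (difference -3.98). The 12911 tiles stood at 50.4% in follicular WT and 44.1% in pro-B WT, against 27.6% and 27.7% at the 329 chosen tiles. The 2 sets were thus not matched in level. Without library 9 the Tet3KO difference at the chosen tiles was 3.84, and without DKO library 10 the DKO difference was 10.4. The 2 libraries that carry the Tet3KO mean were both male, and within males WT libraries 1 and 2 stood at 26.0% and 29.5% against 31.6% and 36.1%.

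Library 8 could be read at 17 chosen tiles with values in all 24 libraries. It stood at 45.6%, against 22.95% and 26.8% in Tet3KO libraries 7 and 9 and 15.9% to 16.9% in pro-B WT. Its level stands far above the other libraries of its group at these few tiles, and with it the pro-B Tet3KO minus WT difference is 15.3 points.

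**Figure D5:**
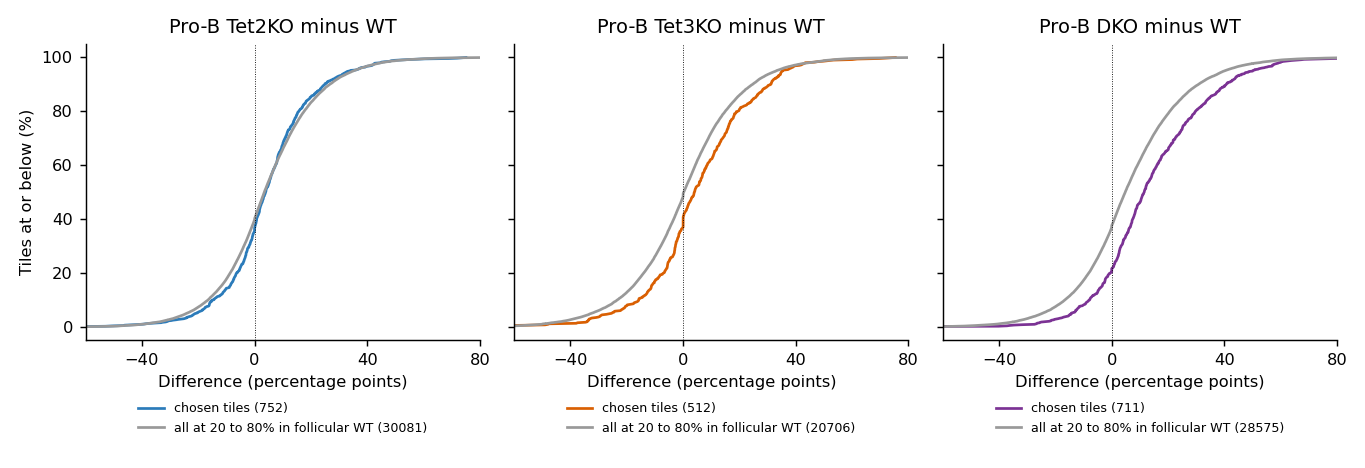
Cumulative share of tiles (%) by the pro-B difference from WT (percentage points) in Tet2KO, Tet3KO and DKO, for the chosen tiles with at least 2 values in each group (coloured) and all tiles at 20 to 80% in follicular WT (grey); the dotted line marks no difference, and the axis ends at -60 and 80. The coloured curve lies right of the grey one for Tet3KO (medians of 4.03 and 0.200) and most of all for DKO (11.6 and 4.80), and runs with it for Tet2KO (3.96 and 3.47).

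The same shift was seen in counts of tiles. In pro-B cells every Tet3KO value lay above every WT value at 83 of 512 tiles tested (16.2%, against 5.91% of all tiles) and below at 33 (6.45%, against 4.26%). Every Tet2KO value lay above at 77 of 752 (10.2%, against 4.65%) and every DKO value at 148 of 711 (20.8%, against 5.13%). Many tiles of the table are fixed near 0 or 100%, and among tiles of 20 to 80% the shares above were 11.2%, 10.8% and 12.7%. The Tet3KO share below was 10.2% there, higher than at the chosen tiles. The Tet2KO share above of the chosen tiles was thus about that of tiles of 20 to 80%, and the Tet3KO and DKO shares above were higher. The 2 sets were not matched in level, since 266 of the 894 chosen tiles (29.8%) were under 20% in follicular WT. Set directly against each other, every Tet3KO value lay above every Tet2KO value at 69 of 533 tiles (12.9%, against 6.38% of all tiles) and below at 62 (11.6%, against 6.39%). Among tiles of 20 to 80% these shares were 8.76% above and 16.1% below.

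Few single tiles passed a test in pro-B cells. Limma, fitted to all 24 libraries, called a tile at an adjusted p under 0.05 (Benjamini-Hochberg over all tiles tested) and a difference of at least 20 points. It called 8 of the 512 chosen tiles higher in pro-B Tet3KO than WT (0.173% of all tiles tested) and 1 lower (0.272%), with 68 (13.3%) higher at an unadjusted p under 0.05, against 6.03% of all tiles. Of the 752 tested in Tet2KO, 4 were called higher (0.185%) and 0 lower (0.0442%). At an unadjusted p under 0.05 the Tet2KO tiles numbered 82, of which 56 were higher (7.45%, against 5.30%). Of the 711 tested in DKO, 22 were called higher (0.356%) and 1 lower (0.102%), with 181 (25.5%) higher at an unadjusted p under 0.05, against 6.75%. These calls rest on sharing the spread with follicular libraries, where the median SD per chosen tile was 6.08 to 9.88 points against 11.8 to 16.1 in pro-B cells. The rule used the follicular WT, Tet2KO and Tet3KO values and favours a small spread there, so these p-values are not independent of the choice. With only the 12 pro-B libraries fitted, limma called 0, 0 and 1 of the tiles higher in Tet3KO, Tet2KO and DKO. At an unadjusted p under 0.05 that fit had 33 (6.45%), 26 (3.46%) and 95 (13.4%) of them higher, against 2.41%, 2.25% and 3.03% of all tiles. Without Tet3KO library 7 or 9, the Tet3KO count was 0 or 1, since few tiles then kept 2 values. Without Tet2KO library 4 or 5, the Tet2KO count was 0 or 1.

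The 8 tiles called higher in pro-B Tet3KO were high in Tet3KO at both stages, in follicular cells by choice. At chr19:46943201-46943300 pro-B WT libraries stood at 38.5%, 34.0% and 41.3%, Tet2KO at 54.5%, 61.7% and 55.6%, Tet3KO at 76.3% and 82.1%, and DKO at 93.3%, 86.4% and 90.5%. The pro-B genotypes formed 4 steps without overlap, and Tet3KO exceeded WT by 41.3 points (SE 6.38, limma adjusted p = 0.00454; 0.00433 to 0.172 over 8 alternatives, lost only with the pro-B libraries alone). The follicular means there were 33.3% (WT), 33.0% (Tet2KO), 56.3% (Tet3KO) and 77.3% (DKO). The Tet2KO libraries thus lay above WT in pro-B cells and overlapped WT in follicular cells.

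At chr13:111354601-111354700 pro-B WT stood at 6.25%, 0% and 2.84%, Tet2KO at 2.80%, 25.6% and 10.3%, Tet3KO at 34.4% and 57.1%, and DKO at 51.8%, 33.3% and 31.9%. Tet3KO lay clear of WT and Tet2KO and overlapped the DKO (42.7 points above WT, SE 7.31, limma adjusted p = 0.00952; 0.00824 to 0.366 over alternatives). At chr17:32580301-32580400 pro-B WT stood at 5.26%, 0% and 5.32%, Tet2KO at 5.47%, 10.3% and 0%, Tet3KO at 52.9% and 74.2%, and DKO at 30.2%, 13.5% and 68.5%. This tile repeated the follicular pattern in pro-B cells, with Tet2KO at the WT level. It was called against WT (60.1 points, SE 11.05, limma adjusted p = 0.0160) and against Tet2KO (58.3 points, SE 11.05, limma adjusted p = 0.0246). The call against WT was lost only with the pro-B libraries alone (limma adjusted p = 0.462). The call against Tet2KO was lost without Tet2KO library 4 or 6 and with the pro-B libraries alone, where its limma adjusted p reached 0.533.

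The other 5 called rises differed in how Tet2KO and the DKO behaved. At chr8:73277601-73277700 pro-B WT stood at 22.4%, 5.26% and 12.6% and Tet3KO at 77.6% and 100%, with Tet2KO at 26.2%, 34.2% and 46.3% (limma adjusted p = 0.0204 against WT). At chr11:59887701-59887800 WT stood at 22.8%, 2.13% and 2.96%, and Tet3KO at 51.6% and 60.2% (limma adjusted p = 0.0475). At chr11:70443901-70444000 WT stood at 31.4%, 55.6% and 52.4%, and Tet3KO at 98.1% and 97.9% (limma adjusted p = 0.0282). At these 3 tiles the pro-B DKO libraries ranged widely, for example from 23.4% to 66.0% at the second. At chr7:119968801-119968900 the 3 WT libraries stood at 0%, Tet2KO at 33.3%, 0% and 0%, and Tet3KO at 45.5% and 93.8%, while the 2 DKO libraries with a value stood at 0%. At chr14:68696601-68696700 both Tet3KO libraries stood at 50.0% and the Tet2KO libraries at 50.0% and 28.6%, with WT at 0%. The levels of exactly 0 and 50.0% may rest on few reads. The calls at chr11:59887701-59887800 and chr7:119968801-119968900 were each kept under 3 of 8 alternatives. Both were lost without WT library 2 or 3, with sex as a covariate and with the pro-B libraries alone, the first also on the logit scale and the second also without WT library 1. The calls at chr8:73277601-73277700 and chr11:70443901-70444000 were each kept under 6, the first lost without WT library 2 and the second without WT library 1. With the pro-B libraries alone none of these 5 was called.

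The largest pro-B differences with no overlap but no call were at chr15:58808101-58808200 (23.5% and 100% in Tet3KO, 0% in the 3 WT libraries), chr16:78560501-78560600 (57.6% and 55.6% against 0%, 0% and 9.90%) and chr13:52633601-52633700 (43.5% and 42.9% against 0%). The call in the opposite direction was at chr11:119110001-119110100, where both pro-B Tet3KO libraries stood at 0% and WT at 100% and 58.3% (-79.2 points, SE 14.3, limma adjusted p = 0.0218). In follicular cells the same tile was at 66.2% in WT and 83.0% in Tet3KO, so Tet3KO lay above WT in follicular cells and below it in pro-B cells.

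The 4 pro-B rises called in Tet2KO were at tiles where the rule asked for Tet2KO near WT in follicular cells. At chr6:32187701-32187800 the 3 pro-B Tet2KO libraries stood at 100% and WT at 0%, 69.1% and 10% (limma adjusted p = 0.0280). At chr8:110223401-110223500 Tet2KO stood at 91.2%, 82.1% and 100% and WT at 0%, 0% and 57.6% (limma adjusted p = 0.0207). At chr17:71267501-71267600 Tet2KO stood at 100% and 76.1% and WT at 10% and 28.6% (limma adjusted p = 0.0217). At chr17:32302701-32302800 Tet2KO stood at 33.0%, 43.0% and 36.2% and WT at 0%, 18.9% and 7.59% (limma adjusted p = 0.0340). Each of the 4 was lost with the pro-B libraries alone. In the order given, the calls were kept under 4 of 10, 6 of 10, 3 of 6 and 2 of 10 alternatives.

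Tested directly in pro-B cells, Tet3KO was called above Tet2KO at 2 of 533 tiles (0.0400% of all tiles tested) and below it at 1 (0.242%), with 42 (7.88%, against 4.37%) higher at an unadjusted p under 0.05. The first is chr17:32580301-32580400, described above. The other is chr7:30556401-30556500, where Tet2KO stood at 62.1%, 63.7% and 50.0% and Tet3KO at 100% in both libraries (41.4 points, SE 7.02, limma adjusted p = 0.0113). Pro-B WT there stood at 100%, 67.2% and 73.2%, so the 2 knockouts lay on either side of WT. At chr3:108200101-108200200 Tet3KO, at 60.9% and 33.3%, was called below Tet2KO, at 76.1%, 79.9% and 82.8% (-32.5 points, SE 6.50, limma adjusted p = 0.0498), a call kept under 1 of 8 alternatives. None of the 3 was called with the pro-B libraries alone, where 20 tiles (3.75%, against 1.80% of all tiles) were higher at an unadjusted p under 0.05.

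The pro-B DKO held the most calls and the largest differences. At chr7:118067001-118067100 pro-B WT stood at 1.54%, 0% and 5.06%, Tet2KO at 11.8%, 27.9% and 7.95%, Tet3KO at 19.05% and 16.7%, and DKO at 98.0%, 100% and 100%. The single knockouts lay above WT at low levels and the DKO was nearly full (97.1 points above WT, SE 6.68, limma adjusted p = 2.36e-06, kept under all 10 alternatives). At chr17:30484101-30484200 the WT and single-knockout pro-B libraries with a value stood at 0% except Tet2KO library 4 at 19.05%, and the DKO stood at 91.2% and 100% (95.6 points, SE 8.18, limma adjusted p = 0.000115). Follicular DKO levels at this tile were 96.3%, 97.0% and 80%, with Tet3KO between 22.6% and 35.7%. At chr15:80150401-80150500 pro-B WT stood at 0%, 19.05% and 21.1% and DKO at 80%, 70.6% and 94.4% (68.3 points, SE 10.9, limma adjusted p = 0.00816), a call lost on the logit scale.

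Further DKO calls of this size included chr15:76019101-76019200 (83.1 points, SE 14.2, limma adjusted p = 0.0109) and chr17:71267501-71267600 (73.0 points). The latter is among the Tet2KO calls above. Calls of 57.6 to 62.2 points included chr8:73277601-73277700, chr11:116468701-116468800, chr5:77635201-77635300 and chr17:35903301-35903400. In that order, they were kept under 4 of 10, 6 of 8, 4 of 6 and 5 of 10 alternatives. The call below WT was at chr5:5071901-5072000, with DKO at 53.8% and 0% and WT at 100% in 2 libraries. With the pro-B libraries alone, the call at chr7:118067001-118067100 was the 1 that remained.

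Whether Tet3 loss acts differently without Tet2 was tested in pro-B cells as the Tet3 effect without Tet2 (DKO minus Tet2KO) less the effect with it (Tet3KO minus WT). Of 497 chosen tiles tested, 1 was called higher (0.107% of all tiles tested) and 0 lower (0.0432%), with 55 at an unadjusted p under 0.05, 40 of them higher (8.05%, against 3.78%). That tile was again chr7:118067001-118067100, at 67.8 points (SE 10.02, limma adjusted p = 0.00711). The call was lost on the logit scale and with the pro-B libraries alone (adjusted p up to 0.0794 over 14 alternatives).

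Tiles grouped by their follicular DKO level differed on average in the pro-B DKO as well. At the 202 tiles with pro-B values and a follicular DKO at least 15 points above WT, the pro-B DKO exceeded pro-B WT by 18.2 points. It exceeded it by 9.64 at the 62 tiles where the follicular DKO was at most 8 points above WT, by 9.60 at the 65 tiles between these limits, and by 24.4 at the 70 tiles where the follicular difference was 30 or more. The corresponding pro-B Tet3KO differences were 8.00, 3.51, 2.53 and 12.3 points, so the 2 lower classes did not follow an order. The SD of the pro-B DKO libraries was 4.06 to 9.55 points in these classes. At the 202 tiles libraries 10, 11 and 12 stood at 53.2%, 35.1% and 41.9%. Differences between classes were not tested. The same mice may have given pro-B and follicular cells, which the labels do not say.

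Between stages, WT was on average level at the 329 tiles, with 27.7% in pro-B and 27.6% in follicular cells (difference -0.130, SE 1.21). Follicular Tet3KO stood 15.6 points above pro-B Tet3KO (SE 2.84), a value that carries the choice of a high follicular Tet3KO level. In the held-out choices, over tiles with pro-B values, follicular exceeded pro-B cells by 8.05 points in Tet3KO, 3.28 in WT, 2.50 in Tet2KO and 5.81 in DKO. Of 764 tiles with at least 2 pro-B WT values, 128 (16.8%) stood at least 15 points lower in follicular than in pro-B WT and 112 (14.7%) at least 15 points higher. The same shares were 2.28% and 7.38% over all tiles, and 12.8% and 28.4% over tiles of 20 to 80%. These groups use the follicular WT levels that chose the tiles, so they are a description. In the first, where WT loses methylation during maturation, follicular Tet3KO stood at 62.9% and DKO at 68.6%, against 64.8% in pro-B WT and 37.1% in follicular WT. In the second group, where WT gains methylation, follicular Tet3KO stood at 71.2% and DKO at 64.4%, against 20.8% in pro-B WT and 48.7% in follicular WT. The DKO thus lay 5.70 points above Tet3KO at the tiles lower in follicular WT and 6.79 below it (difference -6.79) at the tiles higher in follicular WT.

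The chosen tiles were scattered. Joining those within 500 bp gave 852 regions, 812 of a single tile and 40 of at least 2 tiles, the largest holding 3. Of 258 windows of 10 Mb, 205 held a chosen tile, with at most 20 in a window, on chromosome 4 from 130000001 to 140000000. Chromosome 6, which carries Tet3 in mouse, held 39 of them (4.36%, against 4.97% of all tiles). Only 6.15% had 8 or more other covered tiles within 500 bp, compared with 16.6% of all tiles and 6.87% of tiles at 20 to 80%. They thus avoided the densest stretches of coverage about as much as tiles of 20 to 80%.

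At neighbouring tiles Tet3KO and the DKO differed from WT on average more than over tiles of 20 to 80%, and Tet2KO slightly less. The neighbours were not limited to that range of WT level, and these gaps were not tested. The 1498 tiles within 500 bp of a chosen tile that were not chosen themselves averaged 43.0% (WT), 45.4% (Tet2KO), 49.2% (Tet3KO) and 52.3% (DKO). Tet3KO minus WT was 6.24 points there, against 5.09 over tiles of 20 to 80% and 0.913 over all tiles. Tet2KO minus WT was 2.40, against 2.75 and 0.437. DKO minus WT was 9.30, against 6.45 and 1.25. The DKO was the highest genotype at the neighbours, although not at the chosen tiles. Tiles this close can share reads, so they are not a fully separate measurement.

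The regions of at least 2 chosen tiles gave the pattern over more than 100 bp. At chr15:76019001-76019200 follicular WT stood at 34.8% ± 17.1, Tet2KO at 40.01% ± 8.24, Tet3KO at 71.4% ± 6.35 and DKO at 61.8% ± 16.2 (SD over 3 libraries). At chr11:118137801-118138000 the levels were 17.7% ± 4.38, 20.4% ± 5.83, 51.2% ± 11.1 and 92.8% ± 7.63, with pro-B WT at 60.1% (2 libraries with a value) and pro-B DKO at 100%. This region stood lower in follicular than in pro-B WT, and near full at both stages in the DKO. In pro-B cells Tet2KO (94.2%, 3 libraries) and Tet3KO (100%, 1 library) were near full as well. At chr8:123269201-123269400 they were 1.19% ± 2.06, 3.50% ± 2.14, 30.3% ± 8.13 and 53.7% ± 22.2. At chr2:131718401-131718600 they were 29.2% ± 11.7, 32.1% ± 7.15, 61.5% ± 6.46 and 69.1% ± 14.7. A region of 3 tiles at chr10:55834901-55835200, named after its values were seen, was near 0 in all pro-B groups, with means of 0.295% to 2.16%. In follicular cells WT stood at 3.21% and Tet2KO at 2.17%, with 38.5%, 12.1% and 19.3% in the Tet3KO libraries and 11.3% in DKO.

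The rule was also run with the 2 knockouts exchanged, which chose 205 tiles raised without Tet2 and not without Tet3. The numbers of tiles differed, but so did the spread of the 2 groups and the general rise, and the difference between the counts was not tested. At those 205 tiles follicular DKO exceeded WT by 10.2 points (SE 1.92), against 20.6 (SE 2.09) at the 894. In pro-B cells, over 70 of them, Tet2KO exceeded WT by 9.93 points (SE 3.56) and Tet3KO lay at -1.27 from WT (SE 2.78). Turned downwards, the rule chose 198 tiles for Tet3KO, where follicular DKO lay at -4.17 points from WT (SE 0.678), and 258 for Tet2KO, where it lay at -4.96 (SE 0.852). Tiles raised without overlap by 15 points in both single knockouts numbered 953, and there the DKO exceeded WT by 34.1 points (SE 1.56).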

How the data were processed

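RRBS levels of 24 libraries were used; 16 RNA samples were not analysed here. The authors deposited a methylation fraction from 0 to 1 per 100 bp tile and library, without coverage; the submitters' processing notes list Trim Galore, methylKit, mm9 and hg19, without roles. Aligner and coverage minimum: not given in the sources used here. Coordinates were taken as mm9 from the chromosome lengths; the annotation at hand is of another build, so tiles carry no gene names or sequences, and deletion of Tet2 and Tet3 was not checked. Groups came from the labels.

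Fractions were multiplied by 100. The rule was applied to autosomal tiles with 12 follicular values. Limma 3.58.1 (R 4.3.3, data.table package 1.17.8) was fitted to the fractions of all 24 libraries with 8 groups, missing values left out and a trended prior, after tests on simulated data. A contrast needed 2 values per group; p-values are two-sided. An SE of a difference of levels comes from the spread of library means. Other steps used Python 3.11.15, pandas 2.3.3, numpy 2.4.6 and matplotlib 3.10.9. Highest between replicates, the share of identical intermediate values was 1.41%, so no library was a copy of another in its group. Copies between groups were not looked for. Alternatives covered the rule, scale, libraries fitted, sex, centring, difference and missing values; those for the held-out levels and for the interaction were chosen after seeing the data.

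Named tiles were the 10 largest follicular rises, up to 10 regions of joined tiles and 10 pro-B rises without overlap, the 5 highest and 5 lowest DKO differences, tiles called in pro-B contrasts and those at the limits of the rule; not all are printed. Members and lists were chosen with earlier results of these data known.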

Additional observations from a re-analysis of the deposited data

Results flagged for a closer look

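At chr7:118067001-118067100 the effect of Tet3 loss in pro-B cells was 67.8 points larger without Tet2 than with it (limma adjusted p = 0.00711), which put it on the list as a difference between 2 genetic backgrounds under the same contrast. The call was lost on the logit scale and when only the 12 pro-B libraries were fitted.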

How the results depend on the processing

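With a minimum rise of 20 points the rule chose 495 tiles, and follicular DKO minus WT became 25.9 points; as a median over tiles it was 24.7, and the pro-B Tet3KO difference 9.29. At the 17 tiles with 24 values the latter was 15.3. Leaving out a follicular library chose 981 to 2613 tiles, since fewer values must be separated. Leaving out a library of the compared groups gave 3.84 to 8.31 points for pro-B Tet3KO, 2.63 to 5.74 for Tet2KO, 10.4 to 18.1 for DKO and 19.4 to 22.6 for follicular DKO. Pro-B tiles called higher against WT numbered 0 to 8 in Tet3KO, 0 to 6 in Tet2KO and 15 to 30 in DKO. They numbered 0 to 3 for Tet3KO against Tet2KO and 0 to 3 for the interaction. With only the pro-B libraries these 5 counts were 0, 0, 1, 0 and 0, and with only tiles that have 24 values 0 in each, since few are tested. With sex as a covariate Tet2KO gave 1 and Tet3KO against Tet2KO 1, and on logit values the latter gave 5 and the interaction 2; the cause was not tested. The depth behind a level was unknown. At the chosen tiles pro-B levels varied more between libraries (median SD per tile 11.8 to 16.1 points) than follicular levels (6.08 to 9.88). Over all tiles this did not hold, with medians of 0.497 to 2.50 points in pro-B and 2.40 to 2.84 in follicular groups. No paired analysis was possible because the running numbers in the titles differ between all RRBS libraries.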
